A study of Mus musculus with 6 samples.

Results

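The Polycomb repressive complex genes Ezh2, Ezh1, Eed, Suz12, Bmi1, Cbx2, Cbx6, Cbx7 and Cbx8 were taken by symbol from the authors' spike-in normalized gene table, where all 9 had a row among 17173 genes. The study sequenced RNA of mouse bone marrow in 6 libraries of a multiple myeloma model, 3 with the genotype label Che-1 silencing and 3 with the genotype label control. Multiple myeloma is a cancer of antibody-secreting plasma cells, and Che-1, an RNA polymerase II-binding protein of the nucleus, is encoded by Aatf. All 6 samples carry the source name VkCHE mice, and the titles call the first group vkche and the second Control. The sources used here do not give strain, age, sex, number of animals, or the construct and cell type behind the silencing. Replicates are not stated to be separate animals, and p-values therefore reflect only how much these libraries vary, a spread that may be technical.

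Polycomb proteins keep genes silent through a pair of complexes. In Polycomb repressive complex 2 (PRC2) the methyltransferase Ezh2 or its paralog Ezh1, held by the scaffold proteins Eed and Suz12, methylates histone H3 at lysine 27. In canonical Polycomb repressive complex 1 (PRC1) a CBX protein reads that mark with its chromodomain, while a RING protein with a partner such as Bmi1 ubiquitinates histone H2A. Ezh2 is known as the form of dividing cells, including germinal centre B cells, and Ezh1 as the form of resting cells. Cbx7 is known for self-renewal of blood stem cells in mice, and Cbx2, Cbx6 and Cbx8 are other readers that can take its place in PRC1.

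Gene reads recovered per library numbered 13414312 to 22746221 in libraries labelled Che-1 silencing and 10591021 to 16807947 in control libraries. Aatf, the gene named as silenced, stood at 1986, 3808 and 1223 normalized counts in libraries labelled Che-1 silencing, against 896, 396 and 421 in control libraries. It was higher, not lower (1.98 log2 units on the spike-in scale, SE 0.57, limma adjusted p = 0.0022). Since this is opposite to what the label says, groups are called by their labels throughout. Replicate 3 labelled Che-1 silencing stood apart from its group. The mean chi-square per gene of its counts was 155 and 119 against replicates 1 and 2 of that label but 36.0 to 66.4 against the control libraries. Control replicates 2 and 3 had a mean chi-square of 1.84 per gene, where counting error alone gives 1, and were entered as separate libraries, whereas control replicate 1 differed from them by 46.7 and 49.1. The Y-linked gene Ddx3y had 0 reads in all 3 libraries labelled Che-1 silencing and 2168 to 4151 in control libraries, so a difference of label and one of sex cannot be told apart. Of markers that define bone marrow, the neutrophil gene S100a8 had 297 to 3541 normalized counts in libraries labelled Che-1 silencing and 1080 to 1752 in control libraries. The globin gene Hba-a1 had 0 to 4 reads in libraries labelled Che-1 silencing and 3 to 8 in control libraries, and its near-identical copy makes these counts uncertain.

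On the spike-in scale, where normalized counts are levels per spike-in RNA, 7 of 9 members rose in libraries labelled Che-1 silencing (limma, adjusted p of at most 0.05 over all genes tested) and 0 fell. Whether spike-ins were added per cell or per amount of RNA is not given in these sources. That scale is shifted as a whole: 66.6% of the 14506 genes tested were called higher, 0.751% were called lower, and the median log2 difference was 1.54. The 7 of 9 members are therefore close to the share of all genes. The median gene of each library stood at 9.63, 10.36 and 9.08 log2 units in libraries labelled Che-1 silencing and at 8.58, 7.87 and 8.04 in control libraries.

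On the relative scale, where each library's median gene is set equal, 0 of 9 members passed in either direction, against 0% of all genes higher and 0.0276% lower. The fitted relative differences ran from 0.73 to 2.05 log2 units for Suz12, Cbx8, Eed, Ezh2 and Cbx2, were -0.07 and -0.02 for Bmi1 and Cbx6, and were -0.65 and -1.84 for Ezh1 and Cbx7 (limma adjusted p from 0.0564 to 0.951 over the 9). At an unadjusted p under 0.05 the relative fit held 2577 genes higher and 2513 lower, and 5 members were among the higher and 2 among the lower. By edgeR's quasi-likelihood test on the recovered counts 0 members passed there as well, beside 0.00689% of all genes higher and 0.0276% lower. By DESeq2 4 members passed as higher (Ezh2, Eed, Cbx2 and Cbx8), beside 14.8% of all genes, and 2 as lower (Ezh1 and Cbx7), beside 12.1%. Eed, Cbx2 and Cbx8 were higher in all 3 libraries labelled Che-1 silencing than in any control library relative to the median gene, as were 20.5% of all genes, and Ezh1 and Cbx7 were lower in all 3, as were 19.7% of all genes. Ezh2, Suz12, Bmi1 and Cbx6 overlapped between the groups there. In bulk tissue such as this, fewer cells of a type and less RNA per cell cannot be told apart.

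**Figure D1:**
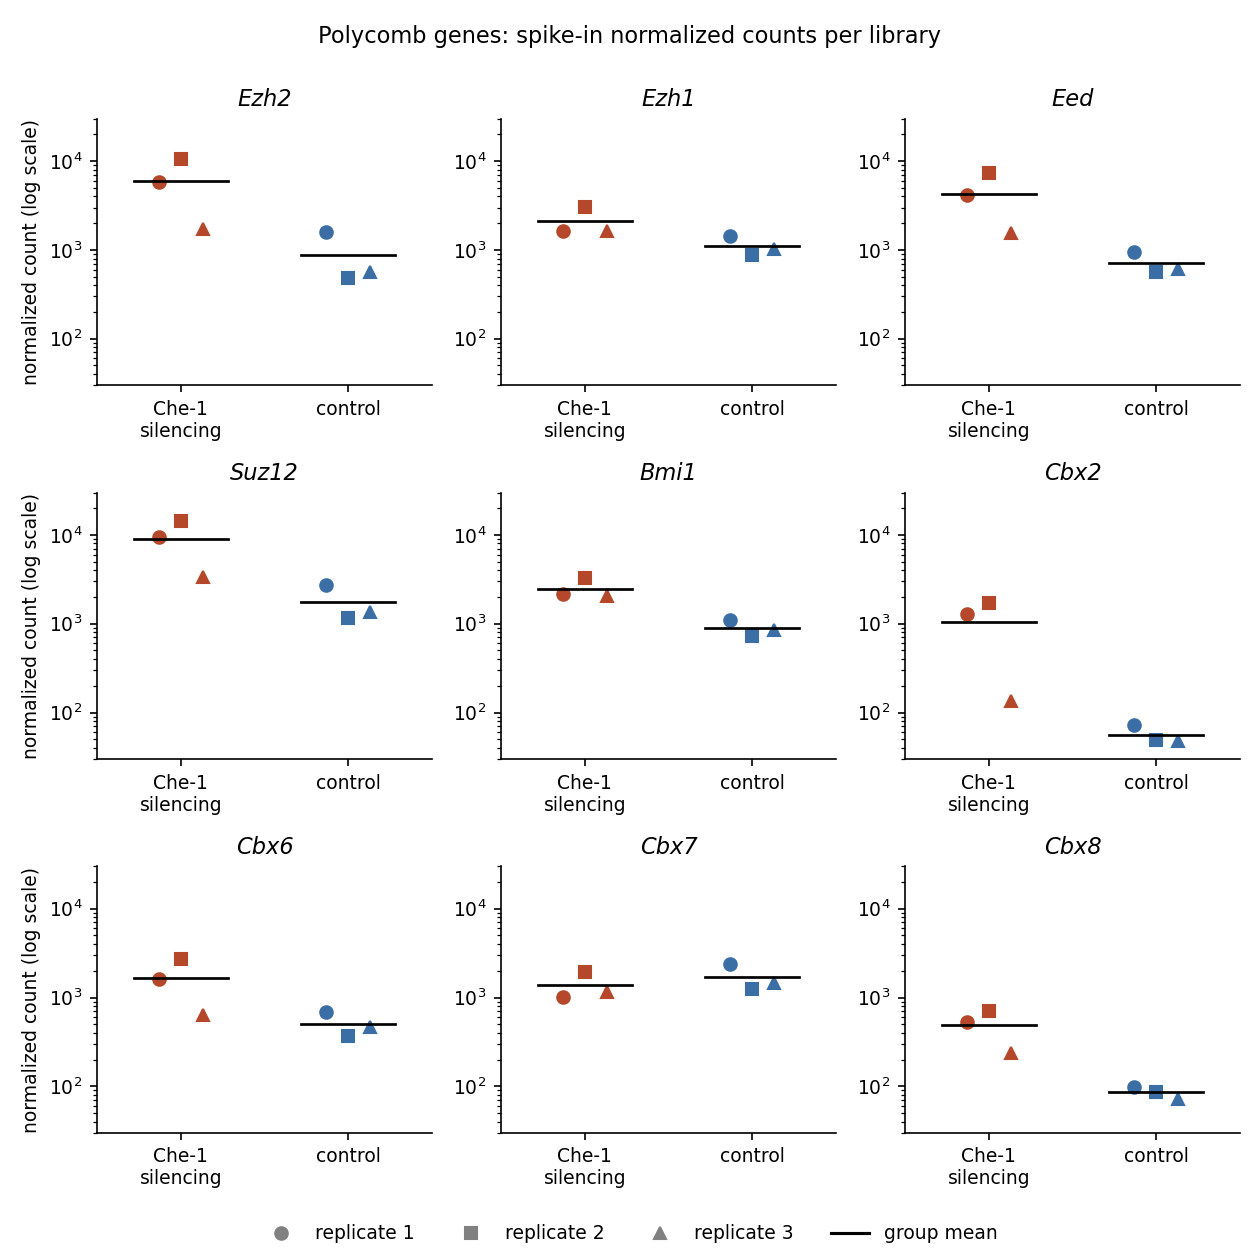
Spike-in normalized counts on a log axis for the 9 Polycomb genes. Each point is 1 of 3 libraries per label and the line is the group mean: Cbx2 differs by the largest factor, and Cbx7 has similar counts under both labels.

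The core of PRC2 apart from Ezh1 was higher per spike-in RNA in libraries labelled Che-1 silencing, and Ezh2, the catalytic subunit, had the largest difference among them. Ezh2 (ENSMUSG00000029687.16; chromosome 6, 47530139 to 47595341 in GRCm38, minus strand) had 5772, 10586 and 1733 normalized counts in libraries labelled Che-1 silencing, against 1580, 487 and 570 in control libraries. Replicate 3 labelled Che-1 silencing lay only just above control replicate 1, and replicates 1 and 2 lay far above both. Ezh2 averaged 6030 ± 4432 in libraries labelled Che-1 silencing and 879 ± 608 in control libraries (SD, n = 3 each). It rose by 2.64 log2 units on the spike-in scale (SE 0.58, limma adjusted p = 1.01e-04). Relative to the median gene its difference was 1.11 (SE 0.43, limma adjusted p = 0.126), and there the groups overlapped, since replicate 3 labelled Che-1 silencing stood at 1.68 log2 units above its median gene and control replicate 1 at 2.04.

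Eed (ENSMUSG00000030619.9; chromosome 7, 89954654 to 89980983 in GRCm38, minus strand) is the subunit that binds the methylated lysine and so couples reading to writing. It had 4108, 7258 and 1545 normalized counts in libraries labelled Che-1 silencing, against 944, 560 and 610 in control libraries. The groups did not overlap on either scale, and replicate 3 labelled Che-1 silencing was the nearest to the control libraries. Eed rose by 2.38 log2 units on the spike-in scale (SE 0.58, limma adjusted p = 3.99e-04), and its relative difference was 0.86 (SE 0.26, limma adjusted p = 0.0904). Suz12 (ENSMUSG00000017548.15; chromosome 11, 79993106 to 80034123 in GRCm38, plus strand), the subunit that assembles the complex, had 9530, 14249 and 3397 normalized counts in libraries labelled Che-1 silencing, against 2706, 1163 and 1349 in control libraries. Suz12 rose by 2.25 log2 units on the spike-in scale (SE 0.58, limma adjusted p = 7.41e-04), and its relative difference of 0.73 (SE 0.28) did not pass (limma adjusted p = 0.125). As for Ezh2, replicate 3 labelled Che-1 silencing and control replicate 1 were close, and they changed places on the relative scale.

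Ezh1 (ENSMUSG00000006920.14; chromosome 11, 101191115 to 101226463 in GRCm38, minus strand) is the paralog of lower enzymatic activity. On the spike-in scale Ezh1 differed less between the labels than the rest of the PRC2 core. It had 1632, 3016 and 1636 normalized counts in libraries labelled Che-1 silencing, against 1450, 877 and 1026 in control libraries. The groups did not overlap on the spike-in scale, as for 67.9% of all genes in that direction and 0.441% in the other, but the difference of 0.87 log2 units (SE 0.58) did not pass (limma adjusted p = 0.165). Relative to the median gene Ezh1 stood at 1.04, 1.20 and 1.60 log2 units in libraries labelled Che-1 silencing and at 1.92, 1.91 and 1.97 in control libraries. All 3 libraries labelled Che-1 silencing lay below the control libraries there, with a difference of -0.65 (SE 0.16, limma adjusted p = 0.0787).

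The promoters of the 3 core genes that rose and of Ezh1 are shown because the 3 passed the test together on the spike-in scale and Ezh1 did not. They are RefSeq sequences of build GRCm38.p6, from 250 bases before the annotated start to 50 after it, read 5′ to 3′ on the gene's strand, and capitals mark words of the cell cycle factor family E2F.
Ezh2 promoter, chr6:47594981-47595280, minus strand: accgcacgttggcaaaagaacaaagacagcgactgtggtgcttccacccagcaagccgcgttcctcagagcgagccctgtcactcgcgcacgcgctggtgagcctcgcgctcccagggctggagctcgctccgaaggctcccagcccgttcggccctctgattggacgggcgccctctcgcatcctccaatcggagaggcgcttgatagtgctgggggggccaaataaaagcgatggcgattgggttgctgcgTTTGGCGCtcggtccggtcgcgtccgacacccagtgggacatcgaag
Eed promoter, chr7:89980927-89981226, minus strand: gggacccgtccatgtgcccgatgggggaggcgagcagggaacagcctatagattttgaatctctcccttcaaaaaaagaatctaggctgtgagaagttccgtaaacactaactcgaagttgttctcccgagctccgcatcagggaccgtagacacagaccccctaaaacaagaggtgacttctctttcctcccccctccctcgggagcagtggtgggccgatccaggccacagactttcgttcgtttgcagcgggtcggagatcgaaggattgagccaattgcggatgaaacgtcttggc
Suz12 promoter, chr11:79992856-79993155, plus strand: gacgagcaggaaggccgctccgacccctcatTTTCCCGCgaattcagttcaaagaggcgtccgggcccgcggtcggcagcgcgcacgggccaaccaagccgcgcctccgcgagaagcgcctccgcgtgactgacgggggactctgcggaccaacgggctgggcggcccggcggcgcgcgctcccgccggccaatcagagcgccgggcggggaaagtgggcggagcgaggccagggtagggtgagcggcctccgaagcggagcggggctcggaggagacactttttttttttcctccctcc
Ezh1 promoter, chr11:101226414-101226713, minus strand: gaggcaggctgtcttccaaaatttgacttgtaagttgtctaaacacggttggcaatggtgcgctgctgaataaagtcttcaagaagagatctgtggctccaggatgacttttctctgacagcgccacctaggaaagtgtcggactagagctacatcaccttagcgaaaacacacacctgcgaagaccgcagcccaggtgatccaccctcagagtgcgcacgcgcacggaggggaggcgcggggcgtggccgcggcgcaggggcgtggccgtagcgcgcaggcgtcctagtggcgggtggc
The E2F words searched, on both strands, were TTTCCCGC, TTTGGCGC, TTTCGCGC and TTTGCCGC. At least 1 of them was present in 2.26% of all 32851 promoters of this length and in 2 of the 8 member promoters in the table, those of Ezh2 and Suz12. Counted from the start site, the word in Ezh2 began at base 3 and the word in Suz12 at base -219. The CCAAT box, searched as CCAAT on both strands, was present in 37.4% of all promoters and in 5 of the 8 member promoters, with 3 copies in Ezh2 and 0 in Ezh1. Cbx2 had no entry in the promoter table. A match of letters is not a site in use.

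The ratio of Ezh2 to Ezh1 within a library does not depend on either scaling. Ezh2 had 4678, 4409 and 1349 reads in libraries labelled Che-1 silencing, against 1350, 1036 and 1200 in control libraries. Ezh1 had 1323, 1256 and 1274 reads in libraries labelled Che-1 silencing, against 1239, 1865 and 2162 in control libraries. Per length of exon, Ezh2 made up 88.5% (95% exact binomial interval 87.8% to 89.1%), 88.4% (87.7% to 89.0%) and 69.7% (68.0% to 71.3%) of the pair in libraries labelled Che-1 silencing. In control libraries it made up 70.3% (68.6% to 71.9%), 54.7% (52.7% to 56.5%) and 54.6% (52.9% to 56.4%). Replicate 3 labelled Che-1 silencing and control replicate 1 had overlapping intervals, which cover counting error only, and the groups overlapped. The log2 ratio averaged 1.24 ± 1.001 in libraries labelled Che-1 silencing and -0.52 ± 0.56 in control libraries (SD, n = 3 each). Their difference of 1.76 log2 units was not distinguishable from the spread between libraries (exact two-sided permutation p = 0.20, where 3 against 3 libraries cannot go below 0.10). Without control replicate 1 the difference was 2.09, and without replicate 3 labelled Che-1 silencing 2.34. It was smaller without replicate 1 or 2 labelled Che-1 silencing (1.47 and 1.48) and without control replicate 2 or 3 (1.60 each).

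Per kilobase of exon the levels of the PRC2 subunits can be set side by side. In replicates 1 and 2 labelled Che-1 silencing, Ezh2, Eed and Suz12 lay between 1988 and 3778 normalized counts per kilobase, and Ezh1 had 268 and 496. In control replicates 2 and 3 the same 3 genes lay between 174 and 309 normalized counts per kilobase, and Ezh1 had 144 and 169. Ezh1 thus lay close to Ezh2 in those control libraries and far below Ezh2 in replicates 1 and 2 labelled Che-1 silencing. The level of Ezh1 itself was not lower in these replicates than in those control libraries. Replicate 3 labelled Che-1 silencing had 618 for Ezh2 and 269 for Ezh1, and control replicate 1 had 564 and 238.

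Bmi1, the RING partner of PRC1 that is needed for blood stem cell self-renewal in mice, had a fitted difference near the median of all genes on the spike-in scale. Bmi1 (ENSMUSG00000026739.13; chromosome 2, 18677018 to 18686629 in GRCm38, plus strand) had 2171, 3229 and 2063 normalized counts in libraries labelled Che-1 silencing, against 1112, 734 and 857 in control libraries. The groups did not overlap, and Bmi1 rose by 1.46 log2 units on the spike-in scale (SE 0.58, limma adjusted p = 0.0210). The rise was lost without replicate 1 labelled Che-1 silencing (limma adjusted p = 0.0566) and without either of control replicates 2 and 3 (limma adjusted p = 0.133 and 0.116). It was also lost with control replicates 2 and 3 summed (limma adjusted p = 0.124). On the relative scale it differed by -0.07 (SE 0.18, limma adjusted p = 0.783).

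Among the CBX readers, Cbx2 had the largest difference of the 9 members and Cbx7 the only negative one on the spike-in scale. Cbx2 (ENSMUSG00000025577.7; chromosome 11, 119022962 to 119031270 in GRCm38, plus strand) had 1279, 1707 and 136 normalized counts in libraries labelled Che-1 silencing, against 72.6, 48.9 and 47.5 in control libraries. The gap between replicates 1 and 2 and replicate 3 of that label was larger than the gap between replicate 3 and the control libraries. Cbx2 rose by 3.57 log2 units on the spike-in scale (SE 0.53, limma adjusted p = 2.14e-09), with an SE that pools the spread of other genes at its level. Its relative difference of 2.05 (SE 0.69) did not pass (limma adjusted p = 0.102). With 62 to 104 reads in control libraries, it was the member with the fewest reads there.

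Cbx8 (ENSMUSG00000025578.9) lies beside Cbx2 on chromosome 11, at 119036305 to 119040969 in GRCm38 on the minus strand. It had 534, 699 and 239 normalized counts in libraries labelled Che-1 silencing, against 98.3, 86.0 and 72.6 in control libraries. The groups did not overlap on either scale. Cbx8 rose by 2.38 log2 units on the spike-in scale (SE 0.53, limma adjusted p = 1.19e-04), and its relative difference was 0.85 (SE 0.24, limma adjusted p = 0.0858).

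Cbx7 (ENSMUSG00000053411.16; chromosome 15, 79915807 to 79971119 in GRCm38, minus strand) had 1022, 1928 and 1147 normalized counts in libraries labelled Che-1 silencing, against 2379, 1256 and 1440 in control libraries. The groups overlapped on the spike-in scale, with a difference of -0.31 log2 units (SE 0.58, limma adjusted p = 0.633). Relative to the median gene it stood at 0.37, 0.55 and 1.08 log2 units in libraries labelled Che-1 silencing, against 2.63, 2.43 and 2.46 in control libraries. Every library labelled Che-1 silencing lay more than 1 log2 unit below every control library. That difference was -1.84 log2 units (SE 0.20), and it missed the threshold (limma adjusted p = 0.0564) although 16 of the 14506 genes tested had a lower p. It passed without replicate 3 labelled Che-1 silencing (-2.05, limma adjusted p = 4.68e-04), by DESeq2 (-1.83, adjusted p = 1.11e-10) and without a minimum mean (-1.77, limma adjusted p = 0.0473). It also passed with control replicate 1 and replicate 3 labelled Che-1 silencing both left out (-1.98, limma adjusted p = 2.01e-05). That fit kept only the closely alike control replicates 2 and 3 and called 34.3% of all genes lower. The difference did not pass without replicate 1 or 2 labelled Che-1 silencing (limma adjusted p = 0.237 and 0.265). Nor did it pass without control replicate 1, 2 or 3 (limma adjusted p = 0.0633, 0.236 and 0.238) or with control replicates 2 and 3 summed (0.236). Adjusted p over 17 alternatives ran from 1.11e-10 to 0.265.

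Cbx6, a reader on chromosome 15 (ENSMUSG00000089715.12; 79823896 to 79834688 in GRCm38, minus strand), had 1606, 2679 and 634 normalized counts in libraries labelled Che-1 silencing, against 695, 371 and 461 in control libraries. The groups overlapped, because replicate 3 labelled Che-1 silencing lay below control replicate 1. Cbx6 rose by 1.505 log2 units on the spike-in scale (SE 0.57, limma adjusted p = 0.0151), a call lost without either of replicates 1 and 2 labelled Che-1 silencing or either of control replicates 2 and 3 (limma adjusted p from 0.0954 to 0.129), and also with control replicates 2 and 3 summed (limma adjusted p = 0.115). On the relative scale it differed by -0.02 (SE 0.24, limma adjusted p = 0.951). Its exons overlap those of Npcd on the same strand in the GENCODE vM21 annotation, so its counts are uncertain.

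**Figure D2:**
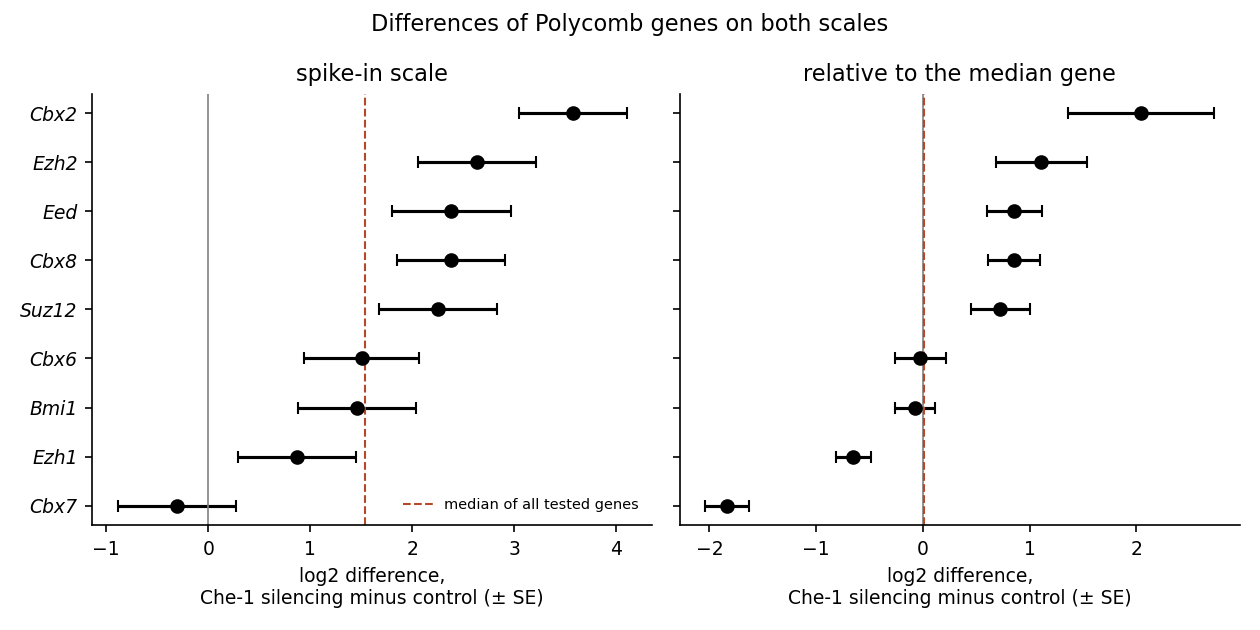
Log2 difference, libraries labelled Che-1 silencing minus control libraries, with its limma SE for each member on the spike-in scale (left) and relative to the median gene (right); the dashed line is the median of all genes tested. The members run from Cbx7, at -1.84 on the relative scale, to Cbx2, at 2.05.

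Ratios of 2 readers within a library were compared for all 6 pairs of Cbx2, Cbx6, Cbx7 and Cbx8, beside the Ezh pair. In 5 of these 7 ratios the groups did not overlap, and each of the 5 had the smallest p that the design allows (exact two-sided permutation p = 0.10, adjusted p = 0.14 over the 7 pairs). The 6 ratios of readers share genes and are not independent. How often ratios of any 2 genes separate the groups was not counted, so the 5 are not a result about the readers. The widest gap was between Cbx2 and Cbx7. Their log2 ratio was 0.32, -0.18 and -3.07 in libraries labelled Che-1 silencing, against -5.02, -4.65 and -4.89 in control libraries, a difference of 3.88. The ratio of Cbx7 to Cbx8 was 0.93, 1.46 and 2.26 log2 units in libraries labelled Che-1 silencing, against 4.58, 3.85 and 4.29 in control libraries, a difference of -2.69. Cbx6 against Cbx7 differed by 1.81 between the labels, Cbx2 against Cbx6 by 2.07 and Cbx6 against Cbx8 by -0.88. Cbx2 against Cbx8 overlapped, with 1.26, 1.29 and -0.81 in libraries labelled Che-1 silencing and -0.43, -0.80 and -0.60 in control libraries (exact two-sided permutation p = 0.40).

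Per kilobase of exon Cbx7 averaged a smaller part of the 4 readers in libraries labelled Che-1 silencing. Cbx7 averaged 41.2% ± 17.7 of their summed level in libraries labelled Che-1 silencing and 79.5% ± 1.18 in control libraries (SD, n = 3 each). Cbx2 averaged 21.7% ± 13.3 in libraries labelled Che-1 silencing and 2.42% ± 0.277 in control libraries (SD, n = 3 each). Cbx6 averaged 24.5% ± 4.07 in libraries labelled Che-1 silencing and 14.1% ± 0.647 in control libraries, and Cbx8 averaged 12.6% ± 1.25 and 4.03% ± 0.992 under the same labels (SD, n = 3 each). For each of the 4 readers the shares did not overlap between the groups. The shares of a library add up to its whole, so a smaller share of Cbx7 makes those of other readers larger. They are therefore not separate results, and the level of Cbx6 relative to the median gene did overlap between the groups. Cbx7 was the largest of the 4 in 5 libraries, and Cbx2 was the largest in replicate 1 labelled Che-1 silencing.

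**Figure D3:**
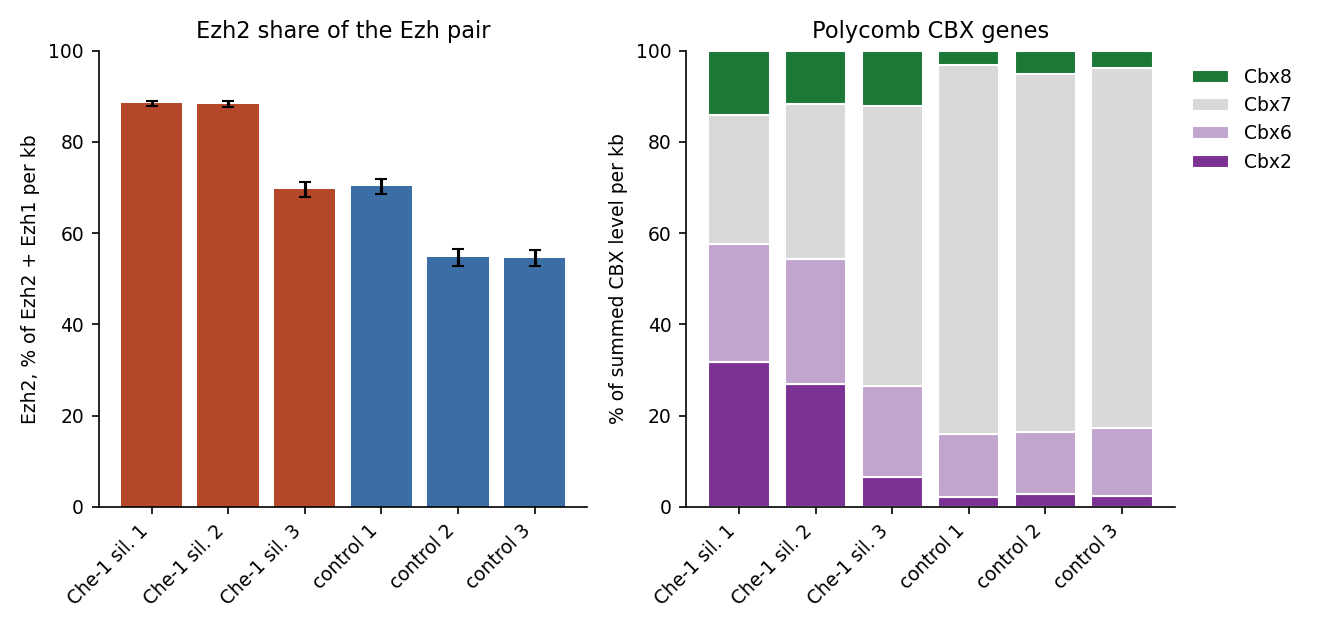
Left, Ezh2 as a percentage of Ezh2 plus Ezh1 per kilobase of exon in each library, with 95% exact binomial intervals of counting error. Right, the makeup of the summed level per kilobase of Cbx2, Cbx6, Cbx7 and Cbx8 in each library: the segment of Cbx7 is the largest in every library but replicate 1 labelled Che-1 silencing.

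The limma calls on the relative scale depend on replicate 3 labelled Che-1 silencing. Without it 5 members, Ezh2, Eed, Suz12, Cbx2 and Cbx8, passed as higher and 2, Ezh1 and Cbx7, as lower (limma adjusted p from 4.68e-04 to 0.0139). In that fit 27.4% of all genes were called higher and 25.4% lower. Ezh2 then differed by 1.53 log2 units relative to the median gene (SE 0.31, limma adjusted p = 0.0108) and Cbx2 by 2.88 (SE 0.17, limma adjusted p = 4.81e-04). With control replicate 1 left out too, a choice made after seeing the data, 6 members passed as higher and 3 as lower, where 37.3% and 34.3% of all genes did. Without control replicate 1 alone 0 members passed, beside 0.241% of all genes higher and 0.544% lower.

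The wider Polycomb machinery was followed in lists of 42 further genes, all tested. On the spike-in scale 30 of them, or 71.4%, rose and 0 fell, beside 66.6% of all genes. On the relative scale 0 passed, 8 were higher and 13 lower without overlap, beside 20.5% and 19.7% of all genes, and their median difference was 0.08, beside 0.01 over all genes. Of 9 other PRC2 genes 7 rose on the spike-in scale, where 66.6% of all genes did. Phf19, an accessory subunit that binds methylated lysine 36 of histone H3, rose by 4.10 log2 units (SE 0.55, limma adjusted p = 1.46e-11), with 3631, 5433 and 352 normalized counts in libraries labelled Che-1 silencing and 110, 104 and 118 in control libraries. Mtf2, its relative, had 15637, 25493 and 2020 normalized counts in libraries labelled Che-1 silencing and 1413, 752 and 860 in control libraries, a rise of 3.26 (SE 0.58, limma adjusted p = 9.51e-07). Both had their highest counts in replicates 1 and 2 labelled Che-1 silencing, as Cbx2 did. The median gene also stood highest in these libraries on the spike-in scale (9.63 and 10.36 log2 units), so that order is not particular to them. Phf1, the other relative, did not pass on the spike-in scale (0.34, SE 0.57, limma adjusted p = 0.594), and its relative difference was -1.19 (SE 0.17, limma adjusted p = 0.0716). The histone chaperone Rbbp7, an X-linked gene, rose by 2.72 (SE 0.58, limma adjusted p = 5.14e-05).

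The counts in the other 3 lists are likewise to be read beside the 66.6% of all genes that rose. Genes named here and among the other PRC2 genes were picked for a low p on the relative scale. Differences on both scales are the same amount apart for every gene, so those printed are not a result about the lists. Of 10 other canonical PRC1 genes 6 rose on the spike-in scale. Phc3, a polyhomeotic subunit, and Pcgf2, the paralog of Bmi1, did not pass there (0.98 and 0.38, limma adjusted p = 0.12 and 0.552). Scml4 had 158, 322 and 741 normalized counts in libraries labelled Che-1 silencing and 985, 465 and 507 in control libraries, a difference that did not pass on the spike-in scale (-0.87, SE 0.55, limma adjusted p = 0.142). Of 15 genes of variant PRC1, which binds without a CBX reader, 12 rose, among them Yaf2 (2.44, SE 0.55, limma adjusted p = 1.48e-04), while Fbrs, Auts2 and Bcorl1 did not pass (0.87, 0.15 and 0.37 log2 units). Of 8 genes of the H2A deubiquitinase complex and the lysine 27 demethylases 5 rose. The demethylase Kdm6a, which is X-linked and escapes X inactivation, rose by 2.51 (SE 0.58, limma adjusted p = 1.96e-04), and Kdm6b, its autosomal relative, did not pass (0.27, SE 0.57, limma adjusted p = 0.679). Foxk2 rose by 2.07 (SE 0.58, limma adjusted p = 0.0017) and Foxk1 did not pass (0.77, SE 0.58, limma adjusted p = 0.221).

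Of 24 genes known as Polycomb targets 20 were in the table and 17 were tested, and 10 of the 17 rose on the spike-in scale and 0 fell, a count not above the 66.6% of all genes that rose. Of these 10, Hoxa9 and Igf2bp3 had control means of 1.96 and 8.15 normalized counts and passed the minimum mean of 10 only through libraries labelled Che-1 silencing, so their calls carry no weight in the count. Hoxa7, a homeobox gene, had 450, 627 and 56.5 normalized counts in libraries labelled Che-1 silencing and 14.0, 10.8 and 12.8 in control libraries, a rise of 4.23 log2 units (SE 0.58, limma adjusted p = 7.12e-11). Hoxa5 rose by 3.50 (SE 0.54, limma adjusted p = 1.11e-08), while Hoxb3 did not pass (0.01, SE 0.59, limma adjusted p = 0.988). Hoxa5 and Hoxa7 were higher relative to the median gene in all 3 libraries labelled Che-1 silencing, without overlap, and Hoxb3 was lower in all 3. These genes were named for a low p on that scale, so their separation there carries no weight. Differences on both scales are the same amount apart for every gene, so their spike-in differences are not a result about the list either. Of the 17 tested, 3 were higher and 4 lower without overlap, beside 20.5% and 19.7% of all genes, and Hoxa9 was among the 3. Hoxa9 had 33.3, 40.8 and 8.99 normalized counts in libraries labelled Che-1 silencing, against 3.51, 0.47 and 1.90 in control libraries. Of the 3 listed genes below that minimum, Pax6 had 0 reads in every library.

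Summed levels of cell markers separated the groups for some lists and overlapped for others, and their part in the results above was not tested. The summed level of 18 cycling cell markers stood at 7.25, 7.16 and 5.99 log2 units above the median gene in libraries labelled Che-1 silencing, against 6.78, 5.77 and 5.78 in control libraries. On the spike-in scale 16 of the 18 rose, beside 66.6% of all genes, with Pcna, the sliding clamp of replication, at 2.54 (SE 0.57, limma adjusted p = 1.48e-04). Control replicate 1 lay above replicate 3 labelled Che-1 silencing in that sum, and it did so for Ezh2 and Suz12 relative to the median gene. The summed level of 9 germinal centre B cell markers stood at 7.18, 6.98 and 3.70 in libraries labelled Che-1 silencing, against 2.28, 2.80 and 2.76 in control libraries, and 9 of 9 rose, beside the same 66.6%. Among them Mybl1, a transcription factor, had 25855, 38392 and 757 normalized counts in libraries labelled Che-1 silencing, against 125, 153 and 170 in control libraries. Relative to the median gene, Cbx2, Cbx7, Eed, Ezh1 and Cbx8 followed the order of that sum in part. Replicates 1 and 2 labelled Che-1 silencing lay farthest from the control libraries, with replicate 3 between them. The share of all genes in that order was not counted.

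**Figure D4:**
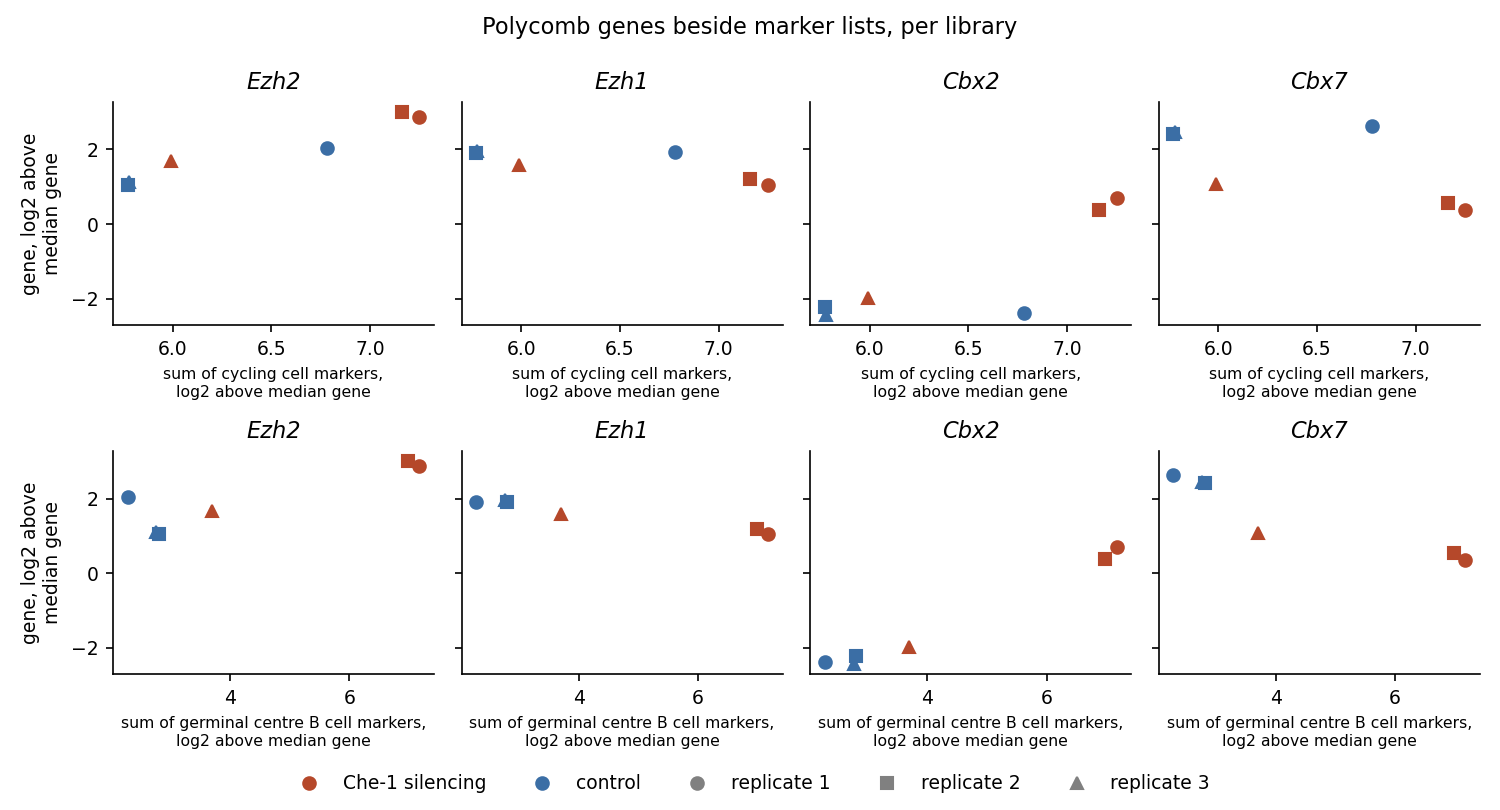
Level of Ezh2, Ezh1, Cbx2 and Cbx7 in log2 units above each library's median gene, against the summed level of cycling cell markers (top) and germinal centre B cell markers (bottom) on the same scale; each point is 1 library. Control replicate 1 lies high for cycling markers (6.78) and for Ezh2 (2.04) but with the other control libraries for Cbx2 and Cbx7.

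The counts of the other marker lists are also to be read beside the 66.6% of all genes that rose and the 0.751% that fell. Of 7 mature B cell markers 5 rose, with a summed level of 5.70 to 6.24 log2 units above the median gene in libraries labelled Che-1 silencing and 5.83 to 6.17 in control libraries. Ms4a1, Cr2 and Cd22 of that list and Igj of the plasma cell list were not recovered, so these counts and sums lack them. Of 9 plasma cell markers 7 rose (4.67 to 5.29 in libraries labelled Che-1 silencing, 4.27 to 4.80 in control libraries), among them the transcription factor Xbp1 (1.76, SE 0.58, limma adjusted p = 0.00596). Of 4 B cell precursor markers 1, Vpreb3, rose (1.46 to 1.87 in libraries labelled Che-1 silencing, 1.89 to 2.15 in control libraries). Of 12 neutrophil markers 0 passed, with sums of 1.15, 2.94 and 5.09 in libraries labelled Che-1 silencing and 3.80, 5.01 and 4.99 in control libraries. Of 7 erythroid markers 0 passed, with 3.46, 3.97 and 4.77 in libraries labelled Che-1 silencing and 6.77, 5.07 and 5.09 in control libraries. Of 10 T and NK cell markers 7 rose (4.02 to 4.46 in libraries labelled Che-1 silencing, 3.999 to 4.19 in control libraries). Of 10 stem and progenitor markers 2 rose, while Kit did not pass (0.21, SE 0.56, limma adjusted p = 0.747), with sums of 3.20 to 3.24 in libraries labelled Che-1 silencing and 3.21 to 3.78 in control libraries. Of 11 monocyte and macrophage markers 6 rose and 1 fell (6.37 to 6.63 in libraries labelled Che-1 silencing, 5.32 to 6.25 in control libraries).

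The genes whose profile was most like that of a member were found by the root mean square difference of centred log2 levels over the 6 libraries, among the 7252 genes whose mean level reached the median. For Ezh2 they were Kif15, Nasp, Dbf4, Knstrn and Mcm4, at 0.03 to 0.07 log2 units, where the median gene lay at 0.69. For Ezh1 they were Gm17644, Gm20199, Akna and Abl1, at 0.03 to 0.05, with a median of 0.53. For Bmi1 they were Ncf4, Prcp, Fbxl5, 9530068E07Rik and Mcl1, at 0.04 to 0.06, with a median of 0.39. For Cbx7 they were Apobec3, Cd8a, Igfbp5, Fcer2a and St5, at 0.20 to 0.24, with a median of 1.07, so no gene followed Cbx7 as closely as others followed Ezh2. Among the members themselves the closest pair was Eed and Suz12, at 0.17, and the farthest was Cbx2 and Cbx7, at 2.21.

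None of the 9 members, by the authors' deposited table, had an adjusted p of at most 0.05, beside 0.0773% of the 16825 genes with one. The median ratio of group means in the authors' deposited table was 2.95. Set against that median, the deposited ratio was 6.27 times it for Cbx2, 2.33 for Ezh2, 2.07 for Eed, 1.94 for Cbx8 and 1.77 for Suz12. In the authors' deposited table the same quotient was 1.09 for Cbx6, 0.936 for Bmi1, 0.635 for Ezh1 and 0.274 for Cbx7.

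The 7 rises on the spike-in scale rest on a spread that limma shares across genes. With each gene's own spread, in limma without moderation, 0 of the 7 passed (limma adjusted p from 0.0729 to 0.119), beside 0% of all genes higher and 0.0276% lower there, and 0.0896% and 0.0758% on the relative scale, where 0 members passed. By edgeR and by DESeq2 the same 7 members rose on the spike-in scale, beside 68.8% and 72.3% of all genes higher and 0.579% and 0.365% lower. Without replicate 3 labelled Che-1 silencing 7 rose, beside 75.4% of all genes higher and 1.62% lower, and without control replicate 1 also 7, beside 66.3% and 0.668%. With both left out 8 rose, Ezh1 being the addition, beside 78.5% and 1.43%.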

How the data were processed

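Bone marrow RNA was depleted of ribosomal RNA and sequenced from stranded libraries, per the labels' protocols, and TopHat, Cufflinks, Cuffdiff and HTSeq with build mm9 are named in the submitters' processing notes, with versions not given in the sources used here. The authors deposited raw counts of 92 ERCC spike-ins, with 5 summary rows that hold 0.0434% to 0.221% of that table's reads. The deposited gene table holds normalized signal, that is group means of gene counts over size factors from the spike-ins, beside the ratio (fold), its log2 value and p-values, per the file headers. Counts per library were solved from the means with size factors over 72 rows without a 0 (70 spike-ins and 2 summary rows). All 3330 and 4739 means above 0 and below 50 gave exactly 1 set of whole counts for the Che-1 silencing and control groups, and 0 did with factors from spike-ins alone. The tolerance was 0.55 of the last digit plus a relative 1e-15. In all 16978 genes (98.9%) were recovered, and the 195 others, among them Mki67, Top2a and Slc4a1, were left out of fits and list sums. Group means above 25000 were not solved for, so the most abundant genes are among those lost. Recovery and fits were tested on simulated data.

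Because gene values were deposited only as normalized means, limma (3.58.1, R 4.3.3) on log2(normalized count + 1) with a mean trend was the main test, on the 14506 genes whose mean reached 10. Differences on that scale understate the change of low genes. The prior degrees of freedom were infinite on the spike-in scale and 2.42 on the relative scale, on which all libraries share 1 median log2 level. Adjustment was Benjamini-Hochberg over all genes tested. Alternatives were edgeR (4.0.16) and DESeq2 (1.42.0) on recovered counts, pseudocounts of 0.1 and 5, other minimum means, TMM, left-out libraries, a replicate block and limma without moderation. Lengths are exons of GENCODE vM21 (GRCm38) protein-coding transcripts, since the authors' annotation is not given in the sources used here. Exons of Ezh2, Eed and Suz12 overlap genes on the opposite strand there, and whether counting used strand is not given. Depth limits Cbx2 and Cbx8 most. The members and lists were chosen with earlier results of these data known. Genes were named by rule: Aatf, every member, in each other Polycomb list up to 4 genes by lowest relative p, up to 3 most abundant markers per list, and 5 like genes for Ezh2, Ezh1, Cbx7 and Bmi1, apart from items that are not reported here. Ddx3y, Hba-a1, Pax6, Igf2bp3 and Npcd were named after their values were seen.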

Additional observations from a re-analysis of the deposited data

How the results depend on the processing

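All 7 ratios of members kept their direction under both pseudocounts, each left-out library and the replicate block. Members called on the spike-in scale numbered 7 and ran from 5 to 8 with libraries left out, were 5 with the replicate block (Bmi1 and Cbx6 lost, beside 45.7% of all genes higher and 0.572% lower) and were 0 in limma without moderation. Members called on the relative scale numbered 0, against 1 without a minimum mean, 6 by DESeq2 and 0 to 9 with libraries left out, the 9 without control replicate 1 and Che-1 silencing replicate 3. All genes called on the spike-in scale numbered 9766, against 3237 to 11567 with libraries left out, 3481 with control replicates 2 and 3 summed, 4 in limma without moderation and 6715 with the replicate block. All genes called on the relative scale numbered 4, against 23 without a minimum mean, 24 in limma without moderation, 3903 by DESeq2, 5 with the replicate block and 4 to 10361 with libraries left out. Differences near 0 turned sign: Cbx6 on the relative scale was 0.045 without a minimum mean, 0.024 by edgeR and -0.16 to 0.28 with libraries left out (0.24 without Che-1 silencing replicate 3, 0.016 without control replicate 1). With libraries left out, Bmi1 on the relative scale ran from -0.31 to 0.055 and Cbx7 on the spike-in scale from -0.59 to 0.062. The cause was not tested. A pairing of libraries by replicate number was not shown. Same-numbered deviations correlated at 0.16, -0.15 and 0.18 across genes, and differently numbered ones at -0.20 to 0.18. With 3 libraries per group these values cannot exclude a pairing.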

Other observations

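The CBX genes of heterochromatin protein 1, which read methylated lysine 9 and lie outside Polycomb, were measured for contrast. Cbx3 had 10258, 15063 and 3697 normalized counts in libraries labelled Che-1 silencing, against 2311, 1090 and 1214 in control libraries, and rose by 2.51 log2 units on the spike-in scale (SE 0.58, limma adjusted p = 1.92e-04). Cbx1 rose by 2.07 (SE 0.57, limma adjusted p = 0.00135) and Cbx5 by 1.56 (SE 0.57, limma adjusted p = 0.0126). Relative to the median gene 0 of the 3 passed, with differences of 0.99, 0.55 and 0.03 for Cbx3, Cbx1 and Cbx5.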
